A study of Mus musculus with 12 samples.

Results

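A set of 10 genes of prostanoid synthesis and signalling was followed in the descending aorta of mice at 6 and 20 months of age: Ptgs1, Ptgs2, Ptgis, Tbxas1, Ptges, Ptgds, Ptgir, Tbxa2r, Ptger3 and Ptger4. They were chosen by name for their place in the pathway, and every gene probe of the arrays that carried 1 of these names was taken. This gave 12 probes on 21 spots, out of 55630 gene probes and of 16853 genes that were tested. All 12 probes stood well above background on 12 of 12 arrays, so that no gene of the set was lost to the filter on dim probes, and none was saturated on an array.

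Both groups were male C57BL/6 mice fed standard chow, with 6 mice aged 6 months and 6 aged 20 months and no other treatment. The aorta had been flushed through the heart and freed of surrounding fat before freezing, and RNA of single mice was labelled with Cy3 and hybridised to Agilent arrays, 1 array per mouse. The groups are 2 cross-sections of age in 1 sex and 1 strain. Each of the 3 slides carried 4 arrays of this series, 2 per age. Slides 1 and 2 were scanned on the same day and slide 3 on another, so that slide 3 and its scan day cannot be told apart. All 6 arrays at 20 months lay in the third column of their slide and no array at 6 months did, so that this column and age cannot be told apart. Values are log2 signals relative to the 75th percentile of the gene probes of the array. A value below 0 therefore lies under that percentile and is not a missing signal. A change is the mean at 20 months minus the mean at 6 months on this log2 scale, with its standard error (SE) from limma. Signals of different probes have no common scale, so levels are compared only between mice and within a probe.

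Per array, 47.5% to 55.8% of the gene probes gave signals well above background. Of the defining genes of the vessel wall, 10 of 10 of smooth muscle and 12 of 12 of endothelium were measured, and 0 of either list passed the test of age. Genes of other cell types were measured as well, among them 10 of 10 heart muscle genes, 10 of 10 brown adipocyte genes and 14 of 14 macrophage genes. Of 10 mesothelial genes 8 were measured. All 8 had a lower mean at 20 months, with a median change of -1.74. Of these, 6 had an unadjusted p under 0.05 (limma) and 0 passed the test. In bulk tissue, fewer cells of a type and less RNA per cell cannot be told apart.

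Prostanoids are made from arachidonic acid. Phospholipases release it from membranes, the cyclooxygenases Ptgs1 and Ptgs2 convert it to prostaglandin H2, and terminal synthases turn that intermediate into prostacyclin, thromboxane, prostaglandin E2 or prostaglandin D2. Each product leaves the cell and acts on G protein-coupled receptors nearby: in the vessel wall, prostacyclin acting on Ptgir relaxes smooth muscle and restrains platelets, whereas thromboxane acting on Tbxa2r contracts smooth muscle and activates platelets.

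None of the 10 genes passed the test of age (limma, adjusted p under 0.05, Benjamini-Hochberg over all genes), beside 53 of the 16853 genes tested, which is 0.314%. Among the 12 probes tested singly 0 passed, beside 0.257% of 27583 probes. At an unadjusted p under 0.05 there was 1 of the 10 genes, Tbxas1, beside 7.99% of all genes. Ptgs2 was the 1 gene whose mean differed by 1.5-fold or more, beside 1.86% of all genes. In 0 of the 10 did the values of the 2 ages separate completely, beside 0.813% of all genes. The mean was higher at 20 months for 8 of the 10 genes and lower for Ptger3 and Ptger4. Over all genes tested it was higher for 7395 and lower for 9458. The median change of the 10 genes was 0.13 and their median absolute change 0.21, beside -0.02 and 0.10 over all genes tested.

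**Figure D1:**
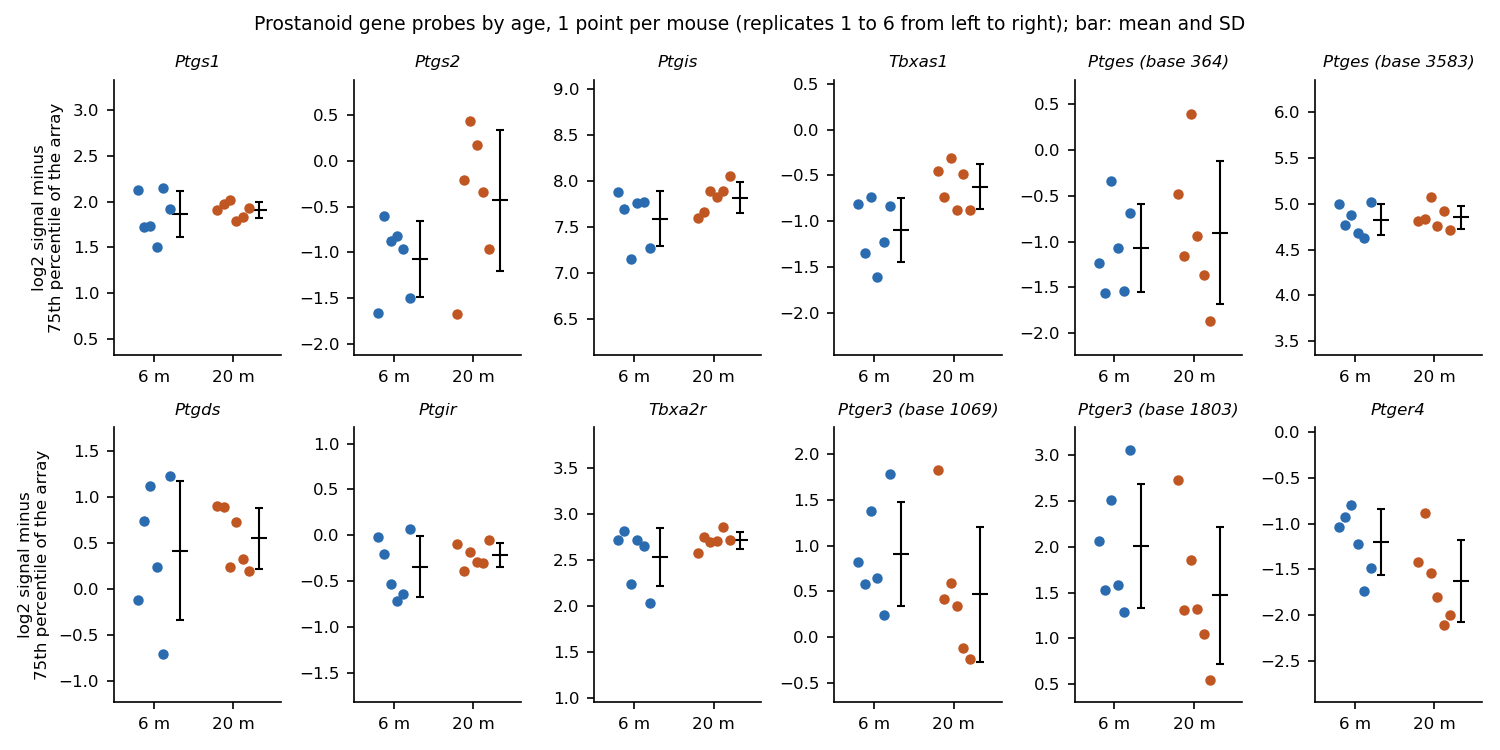
Log2 signal of each of the 12 probes, relative to the 75th percentile of the array, for 6 mice at 6 months (6 m, blue) and 6 at 20 months (20 m, orange), with the mean and SD as bars. The points of the 2 ages overlap in every panel, and wide spreads are seen for Ptgs2 at 20 months, from -1.67 to 0.43, and for Ptger3 (base 1803) at 20 months, from 0.55 to 2.73.

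The plot of the values by mouse shows how the probes differ in spread. The SD between mice of 1 age ran from 0.09 for Ptgs1 at 20 months to 0.78 for one of the probes of Ptges at 20 months. The SD was smaller at 20 months than at 6 months for Ptgs1, Ptgis, Tbxas1, Ptgds, Ptgir, Tbxa2r and the probe of Ptges at base 3583. It was larger at 20 months for Ptgs2, Ptger4, both probes of Ptger3 and the probe of Ptges at base 364. The difference in spread was not tested.

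The cyclooxygenases stand at the entry of the pathway. Ptgs1 is the form that most tissues make constitutively, and Ptgs2 is the form that cytokines, growth factors and mechanical stimuli induce. The stretches around their transcription starts, 250 bases before to 50 after, are shown because these isoenzymes differed in their spread between mice. The SD was 0.25 for Ptgs1 and 0.42 for Ptgs2 at 6 months, and 0.09 and 0.77 at 20 months. The stretches are from RefSeq (build GRCm38.p6, plus strand, Ptgs1 at chr2:36230176-36230475 and Ptgs2 at chr1:150099781-150100080). Capitals mark matches to 9 short motifs searched on both strands.
Ptgs1: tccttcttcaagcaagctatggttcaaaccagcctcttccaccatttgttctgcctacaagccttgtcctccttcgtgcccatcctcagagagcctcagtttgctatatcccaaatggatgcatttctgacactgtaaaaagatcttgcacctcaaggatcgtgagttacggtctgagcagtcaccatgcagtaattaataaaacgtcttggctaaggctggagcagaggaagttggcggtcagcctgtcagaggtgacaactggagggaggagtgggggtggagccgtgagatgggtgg
Ptgs2: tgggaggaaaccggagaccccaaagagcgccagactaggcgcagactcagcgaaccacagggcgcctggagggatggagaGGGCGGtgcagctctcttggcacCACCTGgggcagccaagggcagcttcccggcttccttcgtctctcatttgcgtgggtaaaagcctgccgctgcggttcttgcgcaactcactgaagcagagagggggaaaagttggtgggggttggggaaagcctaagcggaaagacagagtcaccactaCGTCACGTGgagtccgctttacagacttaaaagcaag

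The promoter of Ptgs1 holds no match to any of the 9 motifs. That of Ptgs2 holds the GC box GGGCGG from 170 bases before the RefSeq start and the E-box CAGGTG, on the opposite strand, from 147. Downstream of the RefSeq start it holds the cyclic AMP response core CGTCA and the E-box CACGTG, which overlap. The start used in the aorta was not measured. Over 32851 mouse promoters of the same length, GGGCGG occurred in 35.7%, CAGGTG in 20.2%, CGTCA in 20.8% and CACGTG in 7.15%. The other motifs searched were TGACGTCA (in 1.79% of promoters), TATAAA (13.6%), CCAAT (37.4%), TGACTCA (5.20%) and the CArG box (1.63%). The table held promoters of 9 of the 10 genes. These matches describe the letters of the window and were not set against the signals.

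Ptgs1 was read by a probe at chr2:36107644-36107703 (mm9, plus strand). Its log2 signal ran from 1.51 through a median of 1.83 to 2.14 at 6 months, and from 1.79 through 1.92 to 2.02 at 20 months. All values at 20 months lay inside the range at 6 months. The means were 1.86 ± 0.25 and 1.91 ± 0.09 (SD, n = 6 each), a change of 0.05 (SE 0.11, adjusted p = 0.934). The 95% interval of the change, -0.19 to 0.28, reaches 1.21-fold at its wider end.

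Ptgs2 was read by 10 spots of 1 probe on each array, at chr1:151954744-151954803 (mm9, plus strand), of which 9 or 10 were usable. The probe begins with the following 30 bases of its 60, shown because it is the 1 probe of the set that is repeated on the array.
Ptgs2 probe: tttttgaaaagtttgaagttagaacttagg

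The SD of the repeated spots on an array lay between 0.06 and 0.16, with a median of 0.11, which covers the error of spots and not that of labelling, hybridisation or dissection. The signal ran from -1.66 through -0.92 to -0.60 at 6 months and from -1.67 through -0.28 to 0.43 at 20 months. Of the mice at 20 months, 4 lay above all mice at 6 months, 1 lay between them, and replicate 1 lay below them all. The mean was -1.07 ± 0.42 at 6 months and -0.43 ± 0.77 at 20 months, a 1.55-fold difference that did not pass the test (0.64, SE 0.32, adjusted p = 0.668, limma). The 95% interval ran from -0.05 to 1.32. Within the slides the difference was -0.21, 0.49 and 1.62, each from 2 mice per age. Without replicate 1 at 20 months it was 0.88 (adjusted p = 0.187).

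Ptgs2 was low where heart muscle genes were high. Over the 12 mice, the correlation of Ptgs2 with the mean of the 10 heart muscle genes was -0.81 (Pearson's r, permutation p = 0.00118, adjusted p = 0.0246 over 140 relations) and -0.85 (Spearman's rho, adjusted p = 0.0297). Without the 2 arrays farthest from the median of the heart muscle mean, r was -0.70. Within the 6 mice at 6 months r was -0.81 and within those at 20 months -0.95, while a slide carried 4 arrays of this series, too few for a value. The mean of the heart muscle genes, relative to the 12-array mean, ranged from -1.37 to 2.03 at 6 months and from -1.45 to 3.03 at 20 months. Of its 10 genes 0 passed the test of age, with changes from -0.75 to 1.03. The array with the highest value, replicate 1 at 20 months, and the next, replicate 1 at 6 months, gave the lowest signals of Ptgs2. Without the 3 arrays with the highest values of the heart muscle or T cell lists, the difference of Ptgs2 between the ages was 0.80 (adjusted p = 0.388).

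The genes whose pattern over the 12 mice was most like that of Ptgs2 were Ier3, Rnd1 and Mcl1, with Pearson's r of 0.93, 0.89 and 0.88. These are the highest of all tested genes, so the values describe a selection. Ier3 ran from 0.68 to 1.62 at 6 months and from 1.13 to 2.33 at 20 months, and like Ptgs2 it was highest in replicate 3 at 20 months. Its change of 0.51 (SE 0.19, adjusted p = 0.491) did not pass the test, nor did those of Rnd1 and Mcl1.

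The terminal synthases decide which prostanoid is made. Ptgis, the prostacyclin synthase, was read at chr2:167028696-167028755 (mm9, minus strand). Its signal ran from 7.15 through 7.73 to 7.88 at 6 months and from 7.59 through 7.86 to 8.05 at 20 months. Replicates 3 and 6 at 6 months were the lowest of the 12, and 3 of the mice at 20 months lay above all mice at 6 months. The means were 7.59 ± 0.30 and 7.82 ± 0.17 (SD, n = 6 each), a change of 0.23 (SE 0.13, adjusted p = 0.696) with a 95% interval of -0.06 to 0.52. The difference was positive on each slide, at 0.21, 0.17 and 0.32. It was 0.14 without replicate 3 at 6 months.

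Tbxas1, the thromboxane synthase, which platelets and macrophages are known to make, had the smallest p of the set. It was read by a probe at chr6:39034356-39034415 (mm9, plus strand), shown by its first 30 bases because the gene came nearest to a call.
Tbxas1 probe: ttgtgtcacgctgatatagaaggcacgtgg

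The signal of Tbxas1 ran from -1.61 through -1.03 to -0.74 at 6 months and from -0.88 through -0.61 to -0.31 at 20 months. Of the mice at 20 months, 4 lay above all mice at 6 months, 1 of them narrowly, and the other two lay in the middle of the values at 6 months. The means were -1.09 ± 0.35 and -0.62 ± 0.24, a 1.39-fold difference (0.47, SE 0.16) that did not pass after adjustment over all genes (adjusted p = 0.405, limma). The 95% interval of the difference ran from 0.13 to 0.82. All 6 mice at 20 months lay above the mean at 6 months, and the difference within the slides was 0.45, 0.54 and 0.43.

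The macrophage list is set beside Tbxas1 because these cells make the enzyme. All 14 genes of the list had a higher mean at 20 months, 1 of them, F13a1, passed the test (0.55, SE 0.10, adjusted p = 0.0359), and their mean ranged from -0.47 to 0.14 at 6 months and from 0.05 to 0.38 at 20 months. Tbxas1 followed that mean over the 12 mice with r = 0.90 (permutation p = 0.00013, adjusted p = 0.0091 over 140 relations) and rho = 0.85 (adjusted p = 0.0297). Without the 2 farthest arrays r was 0.74, and within the ages it was 0.89 at 6 months and 0.65 at 20 months. With the platelet genes, of which 5 of 8 were measured, r was 0.59 (adjusted p = 0.244) and rho 0.60 (adjusted p = 0.294). All 5 had a higher mean at 20 months, with a median change of 0.33, and 0 passed the test. The platelet list mean ranged from -0.62 to 0.29 at 6 months and from -0.08 to 0.81 at 20 months. With the mast cell genes, of which 8 of 9 were measured, r was 0.73 (adjusted p = 0.0596) and rho 0.62 (adjusted p = 0.294). Of these 8, 7 had a higher mean at 20 months and 1, Tpsb2, passed the test (adjusted p = 0.0405), and the list mean ranged from -0.61 to 0.26 at 6 months and from 0.04 to 0.49 at 20 months. The part of these cell types in the difference of Tbxas1 was not tested.

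The genes most like Tbxas1 over the 12 mice were Csf2ra (r = 0.94), Gsdmd (0.93) and Csf1r (0.93), again as the highest of all tested genes. Csf1r, the receptor of the macrophage growth factor CSF1, is also on the macrophage list. Csf2ra, a subunit of the receptor for the growth factor GM-CSF, had its highest value, 2.38, in replicate 3 at 20 months, where Tbxas1 was highest too. None of these genes passed the test of age, with changes of 0.39 (SE 0.15), 0.25 (SE 0.12) and 0.24 (SE 0.12).

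**Figure D2:**
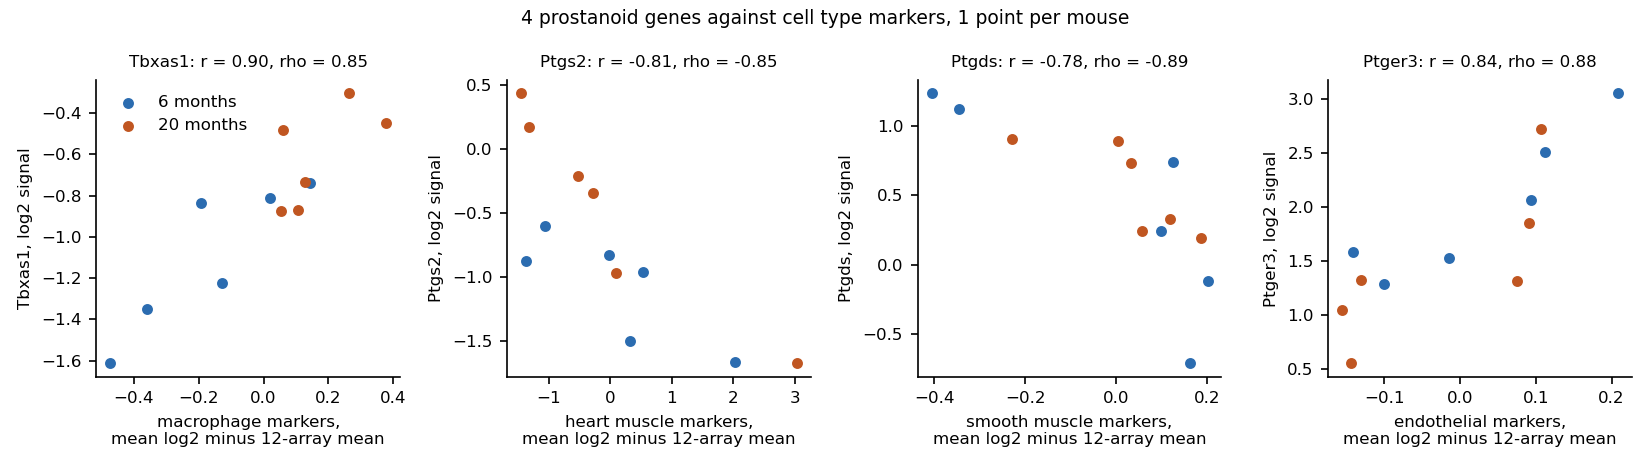
Log2 signal of Tbxas1, Ptgs2, Ptgds and Ptger3 (y axes) against the mean of a list of cell type marker genes, centred on the 12-array mean (x axes), with 1 point per mouse, blue at 6 and orange at 20 months. Pearson's r is 0.90, -0.81, -0.78 and 0.84 in turn, and the relation runs the same way within each age.

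The synthase of prostaglandin E2, Ptges, had probes at base 364 and base 3583 of its transcript (chr2:30748214-30748273 and chr2:30744995-30745054, mm9, minus strand). Their first 30 bases are shown because these probes of the same gene differed in their SD between mice. It was 0.48 at 6 months and 0.78 at 20 months for base 364, and 0.17 and 0.13 for base 3583.
Ptges, base 364: aaccctctgatcgcctggatacatttcctc
Ptges, base 3583: atgataaaggactaaacctctgaacctgta

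The brighter probe, at base 3583, ran from 4.62 through 4.82 to 5.02 at 6 months and from 4.72 through 4.82 to 5.07 at 20 months. The ages overlapped almost completely, with means of 4.83 ± 0.17 and 4.85 ± 0.13 and a change of 0.02 (SE 0.09, adjusted p = 0.961, 95% interval -0.17 to 0.22). The probe at base 364 ran from -1.56 to -0.34 at 6 months and from -1.87 to 0.39 at 20 months, with a change of 0.17 (SE 0.33, adjusted p = 0.926 over all probes). Replicate 3 at 20 months was highest on both. The probes correlated over the 12 mice with r = 0.61 (permutation p = 0.0323) and rho = 0.52 (p = 0.0872), and without the 2 farthest arrays r was 0.39.

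Ptgds, the lipocalin-type synthase of prostaglandin D2, was read at chr2:25322232-25322291 (mm9, minus strand). Its signal ran from -0.71 through 0.49 to 1.23 at 6 months and from 0.19 through 0.53 to 0.91 at 20 months, so that all mice at 20 months lay inside the range at 6 months. The means were 0.42 ± 0.76 and 0.55 ± 0.33, a change of 0.13 (SE 0.30, adjusted p = 0.931, 95% interval -0.52 to 0.78). Ptgds was high where the smooth muscle genes were low, with r = -0.78 (permutation p = 0.00221, adjusted p = 0.0309) and rho = -0.89 (adjusted p = 0.0252), r = -0.66 without the 2 farthest arrays, and r = -0.82 and -0.79 within the ages. The smooth muscle mean was lowest in replicates 3 and 6 at 6 months and replicate 1 at 20 months, and over the remaining 9 arrays r was -0.69. That mean ranged from -0.41 to 0.20 at 6 months and from -0.23 to 0.19 at 20 months, and its part in the spread of Ptgds was not tested.

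The receptors come last in the pathway. Ptgir, the prostacyclin receptor, was read at chr7:17496120-17496179 (mm9, plus strand) and ran from -0.72 through -0.37 to 0.07 at 6 months and from -0.39 through -0.24 to -0.06 at 20 months. All mice at 20 months lay inside the range at 6 months. The means were -0.34 ± 0.34 and -0.22 ± 0.13, a change of 0.12 (SE 0.14, adjusted p = 0.841, 95% interval -0.18 to 0.42).

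Tbxa2r, the thromboxane receptor, was read at chr10:80797520-80797579 (mm9, plus strand). It ran from 2.04 through 2.68 to 2.81 at 6 months and from 2.58 through 2.71 to 2.86 at 20 months. Replicates 3 and 6 at 6 months, which were also lowest for Ptgis, gave the lowest values, and the other 10 mice lay between 2.58 and 2.86. The means were 2.53 ± 0.31 and 2.72 ± 0.09, a change of 0.19 (SE 0.13, adjusted p = 0.75, 95% interval -0.09 to 0.46). Without replicate 6 at 6 months it was 0.09.

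Ptgis and Tbxa2r both followed the smooth muscle genes over the 12 mice, with r = 0.90 (adjusted p = 0.0103) and 0.88 (adjusted p = 0.016), but with rho of 0.75 (adjusted p = 0.129) and 0.55 (adjusted p = 0.352). Without the 2 farthest arrays r was 0.69 and 0.52. Over the 9 arrays other than the 3 lowest in smooth muscle genes, r was 0.51 for Ptgis and -0.07 for Tbxa2r. The relation of Tbxa2r was therefore not seen over those 9 arrays, whose smooth muscle means span a narrower range. Within the 6-month and 20-month mice its r was 0.96 and 0.72, each age holding part of the other 3 arrays. Without the 3 arrays lowest in smooth muscle genes, the difference between the ages was 0.09 for Ptgis and 0.02 for Tbxa2r.

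The arms of prostacyclin and thromboxane can be set against each other within each mouse. The log2 difference between Ptgis and Tbxas1, whose absolute size carries no meaning between probes, was 8.68 ± 0.58 at 6 months and 8.44 ± 0.33 at 20 months, and its ranges of 7.89 to 9.38 and 8.04 to 8.93 overlapped. For the receptors, the difference between Ptgir and Tbxa2r was -2.87 ± 0.52 at 6 months and -2.94 ± 0.20 at 20 months. For the cyclooxygenases, the difference between Ptgs2 and Ptgs1 was -2.93 ± 0.61 and -2.34 ± 0.77. These contrasts describe the values above in another form and were not tested.

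Ptger3 and Ptger4 are receptors of prostaglandin E2 with opposite coupling: Ptger3 mainly lowers cyclic AMP and Ptger4 raises it. Ptger3 had probes at base 1069 and base 1803 of its transcript, at chr3:157268044-157268103 and chr3:157307508-157307567 (mm9, plus strand). Their first 30 bases are shown because 2 probes at separate places gave nearly the same order of mice.
Ptger3, base 1069: accagatcttggatccctgggtttatctgc
Ptger3, base 1803: ctaaatgttcagctagagctgttaaaagga

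The brighter probe, at base 1803, ran from 1.29 through 1.82 to 3.05 at 6 months and from 0.55 through 1.32 to 2.73 at 20 months. Of the mice at 20 months, 5 lay below the mean at 6 months, and replicate 1 was the second highest of all 12. The means were 2.0 ± 0.67 and 1.47 ± 0.75, a change of -0.54 (SE 0.36, adjusted p = 0.749, 95% interval -1.32 to 0.25). Within the slides the change was 0.0045, -0.50 and -1.11. The probe at base 1069 gave means of 0.91 ± 0.57 and 0.47 ± 0.73 and a change of -0.44 (SE 0.34, adjusted p = 0.784 over all probes). Over the 12 mice the probes correlated with r = 0.98 and rho = 0.98 (permutation p = 1e-05 for each, the smallest that 100000 permutations can give), and without the 2 farthest arrays r was 0.97. The spread of Ptger3 between mice was thus shared by both probes.

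Ptger3 was high where the endothelial genes were high, with r = 0.84 (permutation p = 0.00041, adjusted p = 0.0143) and rho = 0.88 (adjusted p = 0.0252). Without the 2 farthest arrays r was 0.76, and within the ages it was 0.92 and 0.78. The mean of the 12 endothelial genes ranged from -0.14 to 0.21 at 6 months and from -0.16 to 0.11 at 20 months. Of these genes 0 passed the test of age. Ptger3 also followed the white adipocyte genes (r = 0.81, adjusted p = 0.0246), with a rho of 0.73 whose adjusted p was 0.146, and r = 0.65 over the 9 arrays other than the 3 lowest in smooth muscle genes. With the smooth muscle genes r was -0.82 (permutation test, adjusted p = 0.0276), with a rho of -0.59 whose adjusted p was 0.294. This relation was not seen over those 9 arrays (r = -0.09), whose smooth muscle means span a narrower range. It was -0.64 without the 2 farthest arrays. Within the 6-month and 20-month mice r was -0.88 and -0.93, each age holding part of the other 3 arrays. For the endothelial genes the value over the 9 arrays was 0.69. The part of these cells in the values of Ptger3 was not tested.

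Ptger4 was read at chr15:5184419-5184478 (mm9, minus strand). Its signal ran from -1.74 through -1.13 to -0.80 at 6 months and from -2.10 through -1.67 to -0.88 at 20 months. Of the mice at 20 months, 3 lay below all mice at 6 months, and replicate 2 lay among the highest at 6 months. The means were -1.20 ± 0.36 and -1.62 ± 0.45, a 1.34-fold difference that did not pass the test (-0.42, SE 0.21, adjusted p = 0.669, 95% interval -0.88 to 0.03). Within the slides it was -0.29, -0.42 and -0.56. The genes most like Ptger4 were Rab30 (r = 0.89), Zfp874a (0.88) and Isl1 (0.86), with changes of -0.17 (SE 0.10), -0.15 (SE 0.12) and -0.29 (SE 0.18), none of which passed the test.

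**Figure D3:**
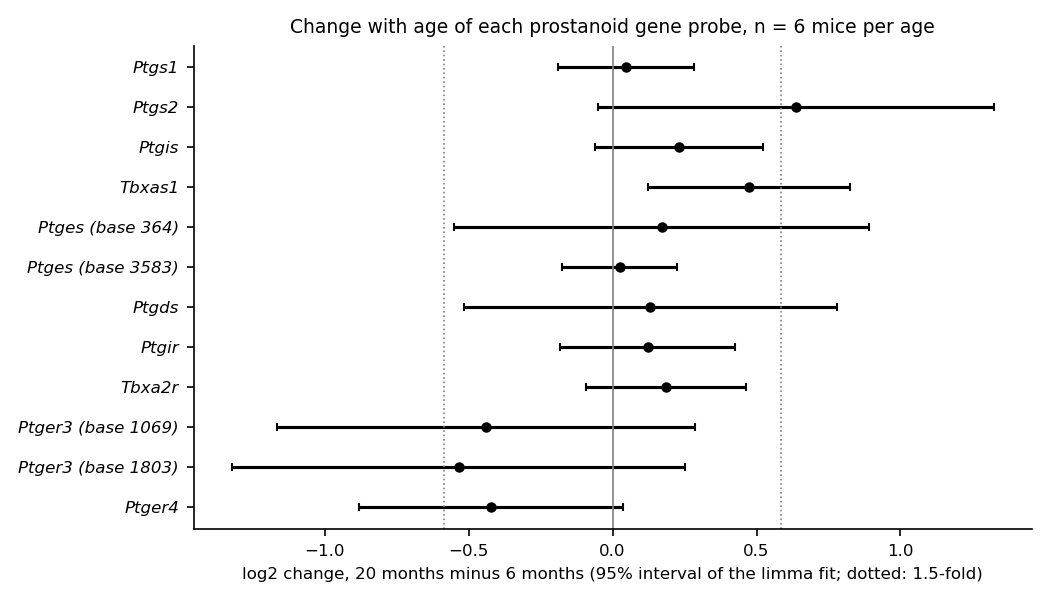
Change of each probe between the ages (x axis, log2, 20 minus 6 months) with its 95% interval from the limma fit, n = 6 mice per age, and dotted lines at 1.5-fold. Tbxas1 is the 1 probe whose interval, unadjusted for the number of tests, does not include 0, and the intervals of Ptgs1, Ptgis, Ptgir, Tbxa2r and the brighter probe of Ptges lie inside the dotted lines.

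The plot of the changes with their intervals separates the genes by the width of the interval, which includes the spread between mice. For Ptgs1, Ptgis, Ptgir, Tbxa2r and Ptges (base 3583), the interval stayed below 1.5-fold in either direction. For Ptgs2 and Ptger3 the intervals reached 2.5-fold in 1 direction. A p that misses the threshold does not show that a gene had the same level at both ages.

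Across the mice, the correlations between the 10 genes differed in sign and size. Of 45 pairs of the genes, 0 had a correlation with an adjusted p under 0.05, which does not show that they vary independently. The largest in size were Tbxa2r with Ptgis (r = 0.84, permutation test, adjusted p = 0.082), Ptger3 with Ptgis (r = -0.78, adjusted p = 0.0648) and Ptger3 with Tbxa2r (r = -0.77, adjusted p = 0.0648). Without the 3 arrays lowest in smooth muscle genes, these values of r were -0.13, -0.38 and -0.17. Next in size were Ptges with Tbxas1 (r = 0.68) and Ptgds with Ptgis (r = -0.68), each with an adjusted p of 0.141. Over the same 9 arrays these were 0.79 and -0.32. Within the ages they were 0.81 and 0.85 for Ptges with Tbxas1, and -0.82 and -0.92 for Ptgds with Ptgis. Of the 140 relations of a gene with a marker list, 13 had an adjusted p under 0.05 by Pearson's r and 4 by both coefficients, which are those of Tbxas1, Ptgs2, Ptgds and Ptger3 given above. All relations were chosen for description after the values had been seen.

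**Figure D4:**
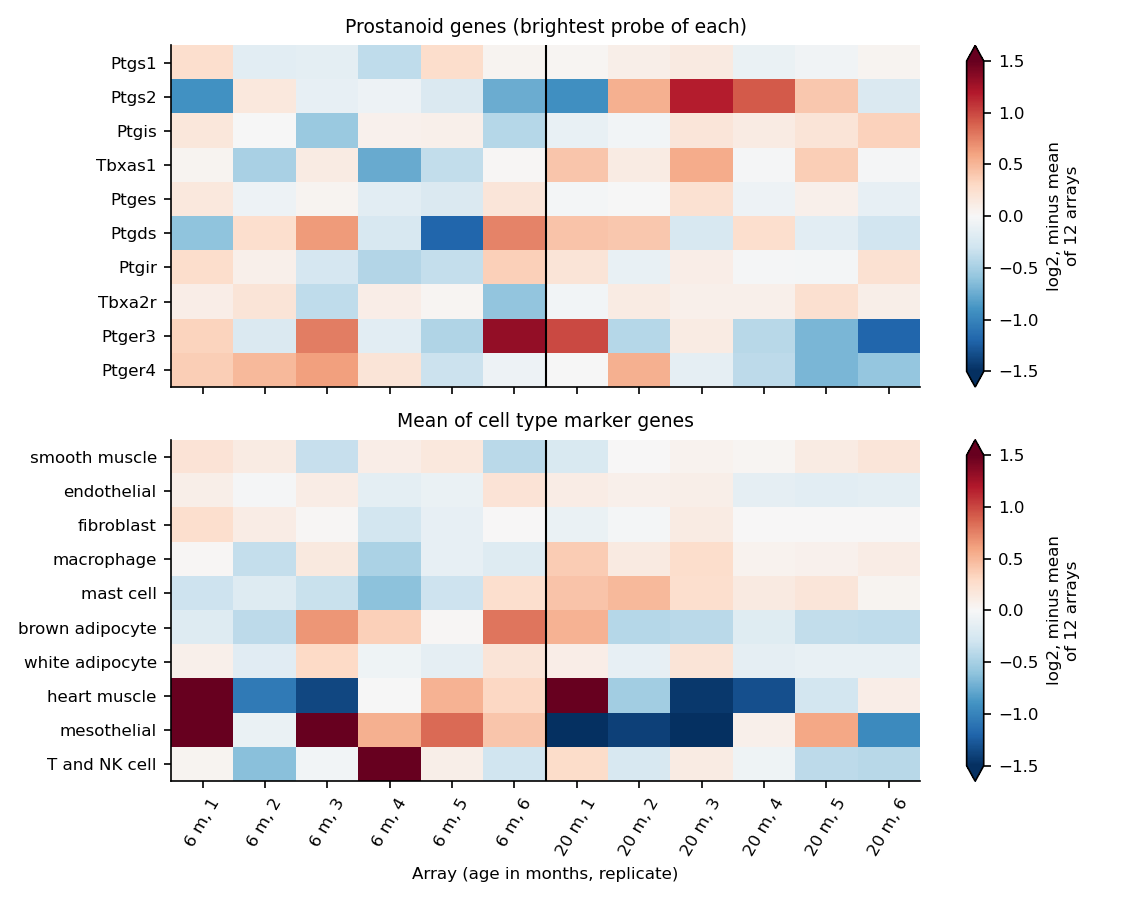
Log2 signal of the 10 genes (upper panel, brightest probe of each) and mean of marker genes of 10 cell types (lower panel) on each array, centred on the mean of the 12 arrays, with colours ending at -1.5 and 1.5. Ptgs2, Ptgds and Ptger3 carry the strongest colours of the upper panel, and the heart muscle markers exceed the colour range in replicate 1 of both ages, where Ptgs2 is lowest.

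The map of signals by array also shows the fat genes. The brown adipocyte genes had a lower mean at 20 months in 10 of 10, with 0 past the test, and their mean ranged from -0.40 to 0.80 at 6 months and from -0.43 to 0.52 at 20 months. Its highest values were in the 3 arrays lowest in smooth muscle genes. Ptger3 followed that mean with r = 0.79, Ptgis with r = -0.80 and Tbxa2r with r = -0.84, and over the other 9 arrays these values were 0.22, -0.18 and -0.41.

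The other genes of the eicosanoid pathways were taken as 7 lists of 83 genes, of which 60 were measured. None of the 60 passed the test (limma, beside 0.314% of all genes), and the smallest adjusted p was 0.253. At an unadjusted p under 0.05 there were 9, which is 15.0%, beside 7.99% of all genes. The mean was higher at 20 months for 37 and lower for 23, beside 7395 and 9458 of all genes. The median change of the 60 was 0.02.

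Of the list for release of arachidonate, which includes the inhibitor Anxa1, 12 of 20 genes were measured, with changes between -0.26 and 0.28. The smallest p was that of Anxa1, an inhibitor of phospholipase A2 induced by glucocorticoids, at 0.28 (SE 0.09, adjusted p = 0.387), followed by the phospholipases Pla2g15 at 0.20 (SE 0.09) and Pla2g12a at -0.18 (SE 0.11). Of the other prostanoid synthases, 5 of 6 were measured, and the membrane-associated synthase Ptges2 stood at -0.18 (SE 0.16), the aldose reductase Akr1b3 at 0.13 (SE 0.08) and Fam213b at -0.05 (SE 0.10). Hpgds, the haematopoietic synthase of prostaglandin D2, was not well above background on enough arrays to be tested.

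Of the list of other prostanoid receptors, which includes the regulator Ptgfrn, 3 of 6 genes were measured. Ptger2, Ptgdr and Ptgdr2 were too dim to be tested. Ptger1, the prostaglandin E2 receptor that raises calcium, had the smallest p of all 60 genes, with a change of 0.52 (SE 0.15, adjusted p = 0.253). Ptgfr, the receptor of prostaglandin F2 alpha, stood at 0.20 (SE 0.31) and its regulator Ptgfrn at -0.15 (SE 0.09). Of the genes of transport and breakdown, 8 of 8 were measured: the prostaglandin transporter Slco2a1 stood at 0.35 (SE 0.14, adjusted p = 0.542), and the reductases Ptgr1 at -0.30 (SE 0.12, adjusted p = 0.519) and Zadh2 at -0.34 (SE 0.15, adjusted p = 0.582).

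Other branches use the same arachidonate. Of the leukotriene and lipoxygenase genes 10 of 16 were measured, and Alox12, the 12-lipoxygenase of platelets, stood at 0.47 (SE 0.15, adjusted p = 0.342), Alox5 at 0.30 (SE 0.16) and its activating protein Alox5ap at 0.19 (SE 0.14). Of the epoxygenase and hydrolase genes 6 of 11 were measured, with the epoxide hydrolase Ephx1 at 0.21 (SE 0.09, adjusted p = 0.59), Cyp2j6 at -0.13 (SE 0.12) and Cyp4f13 at 0.05 (SE 0.10). Of the receptor coupling genes 16 of 16 were measured, with the phospholipase C gene Plcb1 at -0.36 (SE 0.11, adjusted p = 0.295) and the G protein genes Gna12 at 0.17 (SE 0.12) and Gna11 at 0.10 (SE 0.07).

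**Figure D5:**
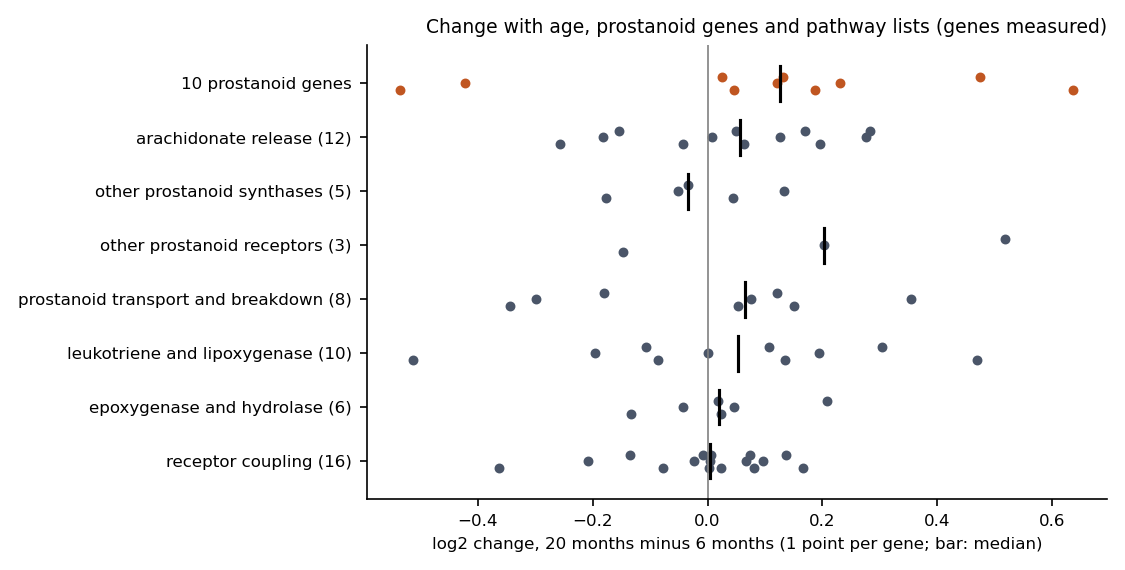
Change between the ages (x axis, log2, 20 minus 6 months) of the 10 prostanoid genes and of the measured genes of 7 pathway lists, with 1 point per gene and a bar at each median. The medians lie between -0.03 and 0.20, with the number of measured genes in brackets, and no point belongs to a gene past the test.

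The plot of the pathway lists places the 10 genes beside the others. Their changes ran from -0.54 for Ptger3 to 0.64 for Ptgs2. Those of the lists ran from -0.51, in the leukotriene and lipoxygenase list, to 0.52, in Ptger1.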

How the data were processed

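RNA of the descending aorta was measured on 12 Agilent 1-colour (Cy3) arrays. The authors used Feature Extraction 10.7.1.1 (protocol GE1_107_Sep09), per the file headers, and probe positions refer to build mm9. The deposited scanner files give an intensity per spot, the processed green signal, with background already subtracted and arrays not yet scaled to each other. A deposited table of log2 values, whose steps are not given in the sources used here, was run as another setting.

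Log2 values of the processed signal were averaged over the spots of a probe that were not marked as outliers, and the 75th percentile of an array's gene probes was then subtracted from its values. Of 55681 gene probes, 51 were left out because an array had no usable spot. Probes well above background on at least 6 of 12 arrays (27583) were kept, with the brightest probe of each gene (16853 genes). Genes were named through RefSeq tables of GRCm38.p6, by accession for 26395 probes, by symbol for 3851 and by synonym for 735. A further 4770 kept the array's own name, and 19879 carry none. The member genes were matched by the array's own gene names.

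Ages were compared with limma 3.58.1 (lmFit, eBayes, R 4.3.3), with Benjamini-Hochberg adjustment and a threshold of 0.05. Correlations used two-sided permutation tests with 100000 draws (scipy 1.17.1), adjusted within each family of relations. Of 15 marker lists, the 14 with at least 5 measured genes were used. The procedure was tested on simulated data.

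Genes named are the 10 members, in each pathway list every gene past the threshold and the 3 with the smallest p, and the 3 genes most correlated with each of the 3 members of smallest p. F13a1 and Tpsb2 were named after their values were seen. The members and lists were chosen with earlier results of these data known. The alternatives were normexp background correction (offset 50), quantile and median scaling, the log2 table, no or a stricter filter, the slide or the replicate number as a block, each slide alone, trend and robust settings, array weights, other uses of several probes per gene, and each array left out. Another 2, chosen after seeing the data, left out the 3 arrays with the highest heart muscle or T cell markers (replicates 1 and 4 at 6 months, replicate 1 at 20 months) and the 3 lowest in smooth muscle markers (replicates 3 and 6 at 6 months, replicate 1 at 20 months).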

Additional observations from a re-analysis of the deposited data

How the results depend on the processing

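Member genes past the threshold numbered 0 under all 27 other settings with a test, and so did the pathway genes. Over these settings the lowest adjusted p was 0.132 for Tbxas1 (highest 0.918), with the slide as a fixed block, and 0.187 for Ptgs2 (highest 0.986), without replicate 1 at 20 months. Ptgis, Tbxas1, Tbxa2r and Ptger4 kept their direction in all 29 settings, but Ptgis ranged from 0.09 to 0.39, Tbxa2r from 0.02 to 0.40 and Ptger4 from -0.57 to -0.23. On slide 1 alone the change was -0.21 for Ptgs2, -0.0021 for Ptges, -0.030 for Ptgds and 0.0045 for Ptger3, and on slide 3 alone -0.10 for Ptgs1, -0.013 for Ptges, -0.27 for Ptgds and -0.27 for Ptgir. With single arrays left out, the change ran from -0.025 to 0.10 for Ptgs1, from -0.020 to 0.063 for Ptges and from -0.094 to 0.29 for Ptgds. It kept its direction for the other genes, from -0.79 to -0.33 for Ptger3, from 0.09 to 0.24 for Tbxa2r, from 0.05 to 0.20 for Ptgir and from 0.14 to 0.29 for Ptgis. Without the 3 arrays with the highest heart muscle or T cell markers that of Ptgds was -0.12. The cause of these reversals was not tested.

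The count of called genes over the whole array, 53, was 33 with median scaling, 23 without the filter on dim probes, 122 with array weights, 30 without those 3 arrays, and 21 to 59 with single arrays left out. With the replicate number as a block it was 6, and 0 members were called. The deviations of same-numbered mice correlated between -0.36 and 0.32, and replicate 2 alone matched its own number best. These values cannot exclude that the numbers pair the mice. The precision is limited by the number of mice, 6 per age.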
